A study of Mus musculus with 8 samples.

Results

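The genes described here mark the identity of retinal ganglion cells (RGCs): the transcription factors Pou4f1, Pou4f2, Pou4f3 and Isl2, the RNA-binding protein gene Rbpms, the glutamate transporter gene Slc17a6, the surface protein genes Thy1 and Nrn1, and Sncg. They were taken as a fixed list of 9 symbols, and all 9 were found among the 55213 genes counted in this series. All 9 were also among the 26900 genes that reached a sum of 10 counts across all 8 retinas and were tested. RNA-seq was performed on whole retinas of germ-free (GF) male C57Bl/6 mice, which carry no microbes, with 1 retina from each of 8 mice. The 4 GF-HFD mice (sample numbers 13, 15, 16 and 19) received a high-fat diet with 23% saturated fat from 7 weeks of age for 8 weeks. The 4 GF-ND mice (sample numbers 9, 10, 11 and 12) received a normal diet over the same time. Both groups were therefore 15 weeks old at collection and differed by diet. No group with a normal microbiome was analysed here.

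RGCs are the output neurons of the retina, and their axons form the optic nerve. POU-domain factors of the Pou4f family act after RGC precursors leave the cell cycle and control their differentiation, survival and axon growth, and the LIM-homeodomain factor Isl2 acts in a subset of RGCs with particular brain targets. Mature RGCs are commonly counted by staining for the Rbpms or Pou4f1 protein, and loss of the transcripts listed here is a usual sign of RGC damage in glaucoma and optic nerve injury. In a whole retina, which consists mostly of rods, fewer RGCs and less RNA per RGC cannot be told apart.

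Promoter sequences, from 250 bases before to 50 bases after a transcription start, were found in RefSeq (GRCm38.p6) for 5 of the 9 genes: Pou4f1, Pou4f2, Isl2, Slc17a6 and Sncg. Rbpms, Pou4f3, Thy1 and Nrn1 had none in the table. Promoters are shown because Pou4f factors are themselves members of the list and bind AT-rich sites, so that the windows allow a search for these letters in other members. The motifs searched on both strands were ATAATTAAT, the core recognised by Pou4f factors, TAATTA, a general homeodomain core that it contains, CCAAT (the CCAAT box) and TATAAA (the TATA box). Of 32851 promoters of this length, 0.274% held ATAATTAAT, 5.29% held TAATTA, 37.4% held CCAAT and 13.6% held TATAAA. The members' windows held CCAAT only in that of Isl2, at 2 places, and TATAAA in none. Both AT-rich matches were in 1 window, that of a downstream start of Slc17a6, and they are the same stretch. Both Slc17a6 windows and that of Sncg are printed 5′ to 3′ on the strand of the gene, with the match in capitals. The capitals read as the reverse complement of the searched core.
Slc17a6, first start, chr7:51621580-51621879, plus strand: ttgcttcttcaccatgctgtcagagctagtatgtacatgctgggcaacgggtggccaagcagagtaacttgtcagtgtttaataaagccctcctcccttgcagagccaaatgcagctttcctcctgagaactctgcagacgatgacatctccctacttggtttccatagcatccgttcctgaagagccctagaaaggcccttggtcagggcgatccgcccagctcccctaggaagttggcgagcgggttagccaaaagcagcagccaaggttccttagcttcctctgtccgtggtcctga
Slc17a6, downstream start, chr7:51624387-51624686, plus strand: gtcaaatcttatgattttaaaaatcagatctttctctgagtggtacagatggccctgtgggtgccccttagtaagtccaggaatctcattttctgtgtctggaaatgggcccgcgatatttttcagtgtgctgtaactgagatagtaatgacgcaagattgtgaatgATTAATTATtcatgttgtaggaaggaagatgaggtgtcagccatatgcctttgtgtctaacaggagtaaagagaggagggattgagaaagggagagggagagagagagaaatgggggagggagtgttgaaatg
Sncg, chr14:34374620-34374919, minus strand: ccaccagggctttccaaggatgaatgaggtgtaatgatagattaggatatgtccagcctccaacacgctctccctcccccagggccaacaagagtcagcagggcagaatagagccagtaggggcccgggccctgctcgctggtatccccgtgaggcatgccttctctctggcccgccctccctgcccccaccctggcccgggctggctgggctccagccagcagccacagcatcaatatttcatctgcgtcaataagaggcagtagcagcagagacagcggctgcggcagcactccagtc
The first Slc17a6 start lies upstream of the gene as annotated by GENCODE (chr7:51622006-51671119), and the downstream start lies inside it in no exon. The match begins 83 bases before that start. The Sncg start lies in an exon of the gene. A match of letters is not a binding site, and binding was not measured in this series. By base composition the windows ranged widely, with 78.3% G and C in Pou4f1, 69.7% in Pou4f2, 67.3% in Isl2, 61.3% in Sncg, and 53.7% and 43.0% in the Slc17a6 windows, against a median of 52.7% over all promoters.

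Sequencing depth was between 41769598 and 44357518 counts per GF-HFD retina and between 39258006 and 44025087 counts per GF-ND retina. The 9 genes together took between 0.0402 and 0.0451% of the counts of a GF-HFD retina and between 0.0331 and 0.0431% of those of a GF-ND retina. Transcripts of 20 lens genes, such as the crystallin gene Cryaa, made up 1.20% of the counts in GF-HFD retina 19 and 7.03% in GF-ND retina 11, and 0.0188 to 0.169% in the other 6 retinas. GF-ND retina 11 also stood apart in the rod genes, so the main results are given with it and without it. Levels are in CPM, counts relative to library size after TMM scaling. The summed CPM of a list of genes is relative to the library total, without TMM scaling. Fold changes are on the log2 scale, positive where GF-HFD is higher, with the standard error (SE) of the edgeR model. Counts were not stated to be separated by strand. The spans of Rbpms, Isl2, Slc17a6 and Nrn1, introns included, overlap other annotated genes on the same or the other strand (among them Gm26632, Gm17226, Gm45072 and Fars2). Whether the exons overlap was not examined, so it is not known whether a part of the counts belongs to these other genes.

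All 9 genes were expressed in every retina, at no less than 2.02 CPM (Isl2). Each had a higher mean in the GF-HFD group, by 0.14 to 0.27 on the log2 scale with a median of 0.20, while the median over all genes tested was -0.03. None was called different between diets by edgeR's quasi-likelihood test at an adjusted p of 0.05 (0 of 9, Benjamini-Hochberg over all genes, adjusted p from 0.649 to 0.900), as was the case for every gene tested (0.0% called higher). At an unadjusted p under 0.05, 1 of the 9 was higher in GF-HFD retinas (Sncg), against 2.85% of all genes, and 0 were lower, against 4.53%. DESeq2 and limma-voom also called 0 of the 9. Of all genes tested, 46.3% had a fold change above 0, and of the 15280 genes with a mean of at least 1 CPM 54.2% did. The groups overlapped for all 9 genes, while every GF-HFD retina lay above every GF-ND retina for 2.29% of all genes.

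**Figure D1:**
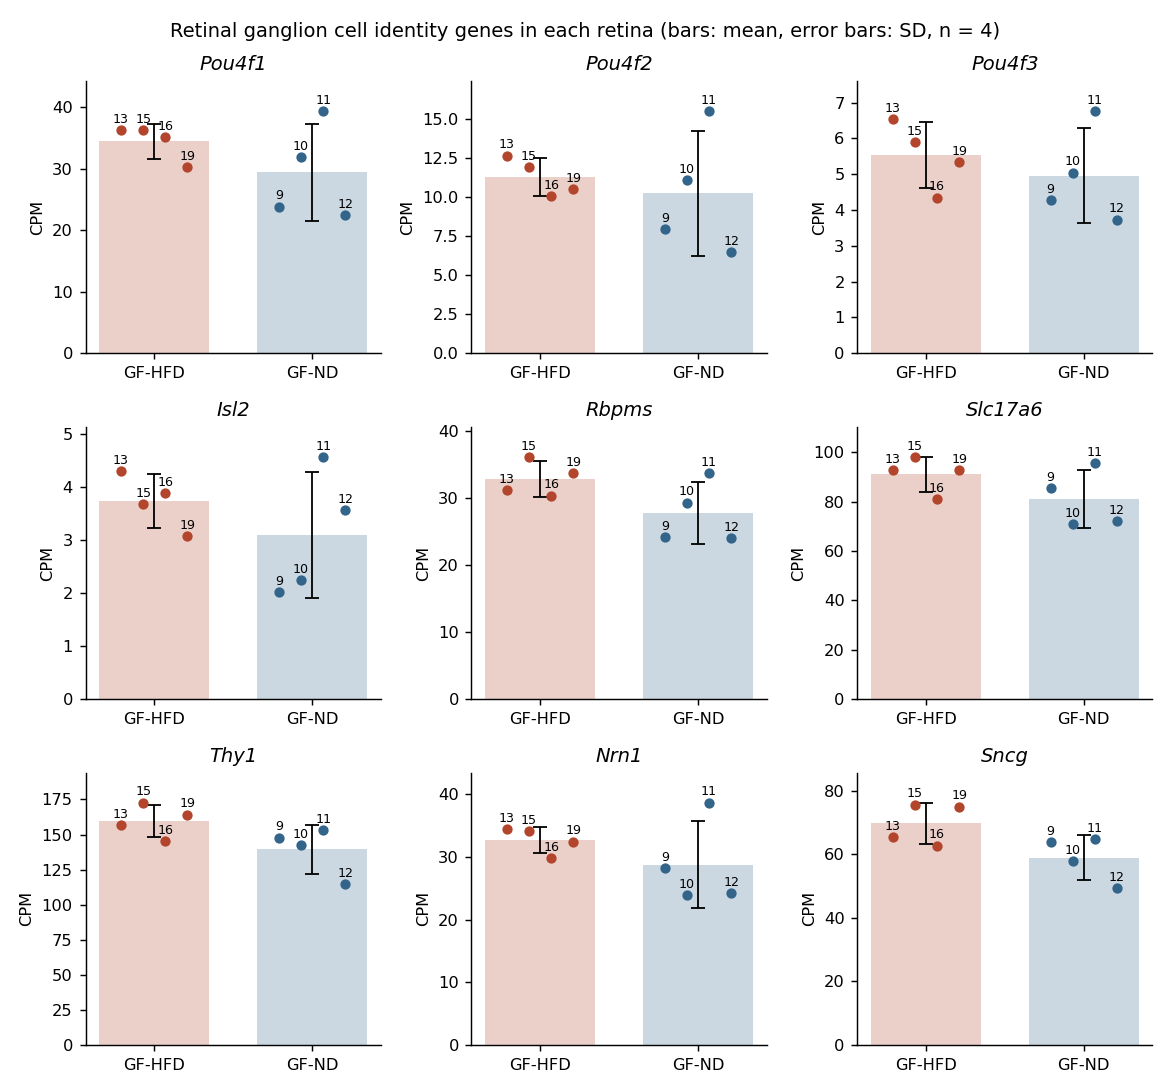
CPM of the 9 RGC identity genes in each retina (points, with the sample number), with GF-HFD left and GF-ND right of each panel. Bars are means and error bars SD (n = 4 each). All group means are higher in GF-HFD, and GF-ND retina 11 lies at or above the top of the GF-HFD retinas in Pou4f1, Pou4f2, Pou4f3, Isl2 and Nrn1.

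Among the transcription factors, Pou4f1 (BRN3A), the family member present in most RGCs, was the most abundant. Its level was 36.2, 36.3, 35.1 and 30.2 CPM in GF-HFD retinas 13, 15, 16 and 19, against 23.8, 31.8, 39.4 and 22.5 CPM in GF-ND retinas 9, 10, 11 and 12. GF-ND retina 11 had the highest level of all 8, and the other 3 GF-ND retinas were below GF-HFD retinas 13, 15 and 16. GF-HFD retinas averaged 34.4 ± 2.86 CPM and GF-ND retinas 29.4 ± 7.83 CPM (mean ± SD of 4 retinas). The log2 fold change was 0.23 (SE 0.17, edgeR adjusted p = 0.734, two-sided exact permutation p = 0.257).

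Pou4f2 (BRN3B), the factor expressed first as RGCs form and required for most of them to survive, had 12.7, 11.9, 10.1 and 10.5 CPM in GF-HFD retinas, against 7.96, 11.1, 15.5 and 6.48 CPM in GF-ND retinas in the same order of mice. Its SD was 10.7% of its mean in GF-HFD retinas, against 39.0% in GF-ND retinas. The range of GF-ND retinas enclosed all 4 GF-HFD retinas. The log2 fold change of 0.14 (SE 0.24, edgeR adjusted p = 0.900) was the smallest of the 9, and its sign turned to -0.03 when GF-ND retina 12 was left out.

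Pou4f3 (BRN3C) marks a smaller RGC subset and is also needed by hair cells of the inner ear. It had 6.54, 5.89, 4.35 and 5.34 CPM in GF-HFD retinas, against 4.27, 5.05, 6.77 and 3.73 CPM in GF-ND retinas, or 156 to 284 counts per library. The groups overlapped over most of their range (log2 fold change 0.16, SE 0.22, edgeR adjusted p = 0.863). Of 10 genes of hair cells and sensory ganglia, Atoh1, which specifies hair cells, was at 0 counts in all 8 libraries, and Otof, a synaptic protein of inner hair cells, had 0 to 19 counts per library, while Myo7a, a myosin, had 28.7 to 42.6 CPM. The 10 genes summed to between 121 and 195 CPM in the GF-HFD group and between 116 and 163 CPM in the GF-ND group. Most of this sum was Ntrk2, with 82.3 to 153 CPM in GF-HFD and 72.5 to 119 CPM in GF-ND retinas. The sum is therefore not a measure of hair cells. The part of the 10 genes in the Pou4f3 level was not tested. The transcripts of the 3 Pou4f genes share no stretch of 100 bases, the read length, and the longest identical runs were 71 bases (Pou4f1 and Pou4f2), 41 (Pou4f1 and Pou4f3) and 35 (Pou4f2 and Pou4f3).

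Isl2 was the weakest of the 9, with 180, 155, 170 and 130 counts in GF-HFD retinas, against 84, 91, 192 and 149 counts in GF-ND retinas. After scaling this was 4.30, 3.68, 3.89 and 3.07 CPM in GF-HFD, against 2.02, 2.24, 4.57 and 3.56 CPM in GF-ND retinas. Unlike the Pou4f genes, it was low in GF-ND retinas 9 and 10 and not in 12. It had the largest fold change of the 9, 0.27 on the log2 scale, and also the largest error (SE 0.27, edgeR adjusted p = 0.804). The spread of Isl2 within GF-ND, 38.5% of its mean, was well above the 8.80% that counting alone gives and above the 12.5% that it gives if both reads of a pair were counted.

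Rbpms, whose protein labels the cell bodies of nearly all RGCs, had 31.2, 36.2, 30.4 and 33.7 CPM in GF-HFD retinas, against 24.3, 29.4, 33.8 and 24.0 CPM in GF-ND retinas. Retinas 9, 10 and 12 of GF-ND were below all 4 GF-HFD retinas, and retina 11 was among them. GF-HFD retinas averaged 32.9 ± 2.63 CPM and GF-ND retinas 27.8 ± 4.65 CPM (mean ± SD of 4 retinas), with a log2 fold change of 0.24 (SE 0.12, edgeR adjusted p = 0.658, two-sided exact permutation p = 0.143). Rbpms is also expressed in vascular smooth muscle and pericytes, and 10 marker genes of these cells summed to between 69.1 and 123 CPM in the GF-HFD group and between 68.4 and 211 CPM in the GF-ND group, highest in GF-ND retina 11. Their part in the Rbpms level was not tested.

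Slc17a6 encodes VGLUT2, which loads glutamate into synaptic vesicles of RGCs. Its level was 92.8, 97.9, 81.2 and 92.7 CPM in GF-HFD retinas, against 85.5, 71.0, 95.6 and 72.2 CPM in GF-ND retinas. The highest and the lowest of the 8 retinas differed 1.38-fold, the narrowest such range of the 9 genes. Its log2 fold change was 0.17 (SE 0.11, edgeR adjusted p = 0.703).

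The surface protein gene Thy1, long used as an RGC marker in rodents, was the most counted of the 9. It had 157, 173, 146 and 164 CPM in GF-HFD retinas, against 148, 142, 153 and 114 CPM in GF-ND retinas. Retina 12 of GF-ND was lowest, and the others overlapped with the GF-HFD retinas. GF-HFD retinas averaged 160 ± 11.6 CPM and GF-ND retinas 139 ± 17.3 CPM (mean ± SD of 4 retinas), and the two-sided exact permutation p, 0.0857, was the smallest of the 9 genes, where 4 retinas against 4 allow no p under 0.0286 (log2 fold change 0.20, SE 0.10, edgeR adjusted p = 0.658). Mouse T cells express Thy1 too. Of 8 T cell genes, Cd3d and Cd2 were at 0 counts in all libraries and Cd3e and Cd3g had 4 counts each in all. The others were detected in every library: Lck with 28 to 51 counts, Cd4 with 6 to 24, Cd8a with 2 to 20 and Cd5 with 1 to 16. The 8 summed to between 1.51 and 1.76 CPM in the GF-HFD group and between 1.11 and 2.19 CPM in the GF-ND group. Their part in the Thy1 level was not tested.

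Nrn1 encodes neuritin, a lipid-anchored protein that promotes neurite growth and RGC survival. It had 34.4, 34.2, 29.9 and 32.5 CPM in GF-HFD retinas, against 28.3, 23.9, 38.7 and 24.2 CPM in GF-ND retinas. As with Rbpms, GF-ND retinas 9, 10 and 12 were below all GF-HFD retinas, but retina 11 was above them (log2 fold change 0.19, SE 0.15, edgeR adjusted p = 0.749).

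Sncg encodes gamma-synuclein, an abundant protein of RGC cell bodies and axons. Its level was 65.5, 75.7, 62.8 and 75.1 CPM in GF-HFD retinas, against 63.9, 57.8, 64.9 and 49.3 CPM in GF-ND retinas. Retinas 15 and 19 of GF-HFD were the highest, and retinas 13 and 16 were close to GF-ND retinas 9 and 11. GF-HFD retinas averaged 69.8 ± 6.59 CPM and GF-ND retinas 59.0 ± 7.18 CPM (mean ± SD of 4 retinas), with a log2 fold change of 0.24 (SE 0.11, edgeR unadjusted p = 0.0469, adjusted p = 0.649, two-sided exact permutation p = 0.114).

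To compare levels between genes, CPM was divided by exon length in kb. In this scale Sncg was highest, with a mean of 75.6 CPM per kb over the 8 retinas, followed by Thy1 at 49.96, Slc17a6 at 15.9, Nrn1 at 13.7, Pou4f1 at 6.83, Rbpms at 4.63, Pou4f2 at 3.37, Pou4f3 at 2.19 and Isl2 at 1.56. The cell body, transporter and surface genes except Rbpms thus stood above the transcription factors. Sncg and Thy1, Thy1 and Slc17a6, and Nrn1 and Pou4f1 did not overlap in any retina, while Slc17a6 and Nrn1, and each pair of neighbours from Pou4f1 to Isl2, overlapped between retinas. The order depends on the length used. With the median transcript length instead of the exon length, Thy1 came first and Rbpms, whose 15 transcripts are mostly short, moved to the fourth place.

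**Figure D2:**
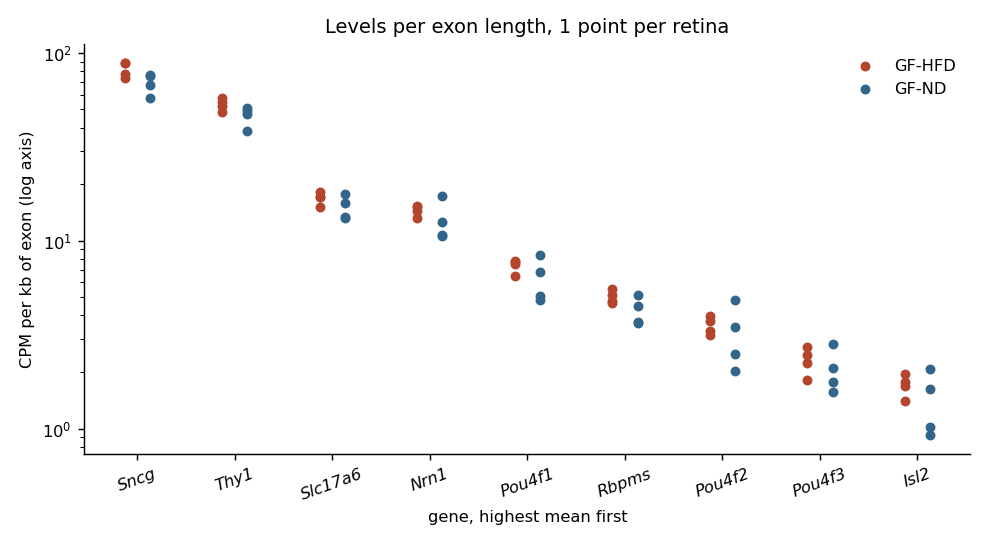
CPM per kb of exon on a log axis for each gene, ordered by mean level, with 1 point per retina (GF-HFD left, GF-ND right of each gene). Sncg, at a mean of 75.6, and Thy1, at 49.96, lie above the rest, and the 4 transcription factors and Rbpms lie below Nrn1, at 13.7.

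The 9 genes tended to be high or low in the same retinas. Of the 9, all were above their 8-retina mean in GF-HFD retinas 13 and 15, 7 in retina 19 and 3 in retina 16. In GF-ND, 9 of 9 were above it in retina 11, but 2 in retina 9, 2 in retina 10 and 1 in retina 12. Every lowest value belonged to a GF-ND retina (6 genes in retina 12, 2 in retina 10 and 1 in retina 9). The highest values were in GF-ND retina 11 for 5 genes and in GF-HFD retina 15 for 4. For comparison, among all genes with a mean of at least 1 CPM, GF-ND retina 11 was highest for 27.1% and GF-ND retina 12 lowest for 22.6%.

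The transcription factors moved over a wider range than the other genes. Their mean deviation from the 8-retina mean was 0.30, 0.19, 0.03 and -0.02 (log2) in GF-HFD retinas 13, 15, 16 and 19, against -0.44, -0.12, 0.44 and -0.38 in GF-ND retinas 9, 10, 11 and 12. The other 5 genes deviated by 0.09, 0.22, -0.03 and 0.15 in GF-HFD, against -0.08, -0.17, 0.15 and -0.33 in GF-ND retinas. GF-ND retina 9 was thus low mainly in the transcription factors, and retina 12 in both kinds. Pou4f2, Pou4f3 and Isl2 were also the 3 least counted genes. Their SD in GF-ND was 39.0, 26.7 and 38.5% of the mean. Counting alone gives 4.85, 6.98 and 8.80% there, or 6.85, 9.87 and 12.5% if both reads of a pair were counted. Pou4f1 was counted about as often as Rbpms and Nrn1. The part of counting error in the wider range was not tested.

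**Figure D3:**
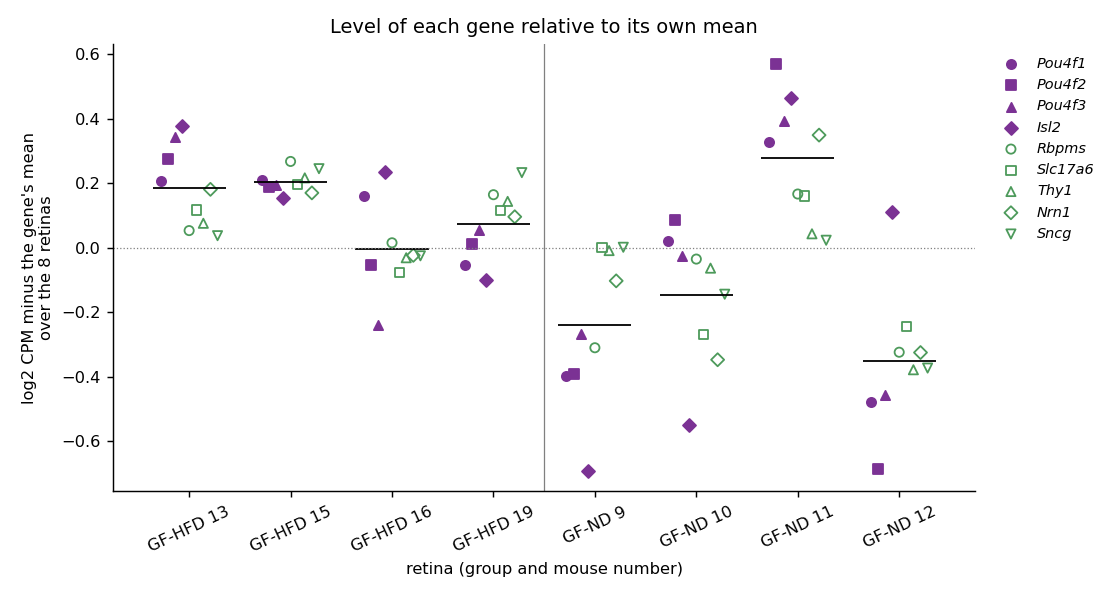
Log2 CPM of each gene minus its mean over the 8 retinas, for GF-HFD (left) and GF-ND (right) retinas; filled purple symbols are the 4 transcription factors, open green symbols the other 5 genes, and black lines the mean of all 9. The symbols of 1 retina lie on the same side of 0 for all 9 genes in GF-HFD retinas 13 and 15 and GF-ND retina 11, and the transcription factors extend furthest.

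When each gene was set against the mean of the other members in the same retina, the differences between diets shrank to between -0.06 and 0.12 (log2). The groups overlapped for all 9. No difference in the makeup of the set, such as Pou4f1 relative to Rbpms, could be seen beyond the spread of 4 retinas. The SD of log2 CPM was larger in GF-ND than in GF-HFD retinas for 9 of 9 genes, and for 8 of 9 without GF-ND retina 11. A larger SD in GF-ND was common in this series, in 70.7% of all genes tested and 80.8% of those with a mean of at least 1 CPM.

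How far the diets stood apart depended on single GF-ND retinas, in both directions. With 1 retina left out at a time, the smallest fold change of a gene lay between -0.03 (Pou4f2, without GF-ND retina 12) and 0.18 (Rbpms). The largest was reached without GF-ND retina 11 for all 9 genes. That retina was the highest of GF-ND for each of them, so leaving it out had to lower each GF-ND mean. Without retina 11, the median log2 fold change of the 9 genes was 0.35 instead of 0.20. It was then 0.41 (SE 0.12) for Pou4f1, 0.42 for Pou4f2, 0.52 for Isl2, 0.37 for Nrn1 and 0.35 for Rbpms. The genes least moved were Slc17a6 (0.26), Thy1 (0.25) and Sncg (0.30). All 9 were above 0, as were 51.0% of the genes tested. None passed edgeR's adjusted p of 0.05 (Benjamini-Hochberg, 0.0720 for Nrn1 to 0.279 for Pou4f3), where 0.232% of all genes were called higher. At an unadjusted p under 0.05, 8 of 9 were higher in GF-HFD retinas, all but Pou4f3, against 12.1% of all genes. Rbpms and Nrn1 then separated the groups fully, and their two-sided exact permutation p of 0.0286 is the smallest that 35 arrangements allow. For both genes retina 11 was the only GF-ND retina not below all GF-HFD retinas, so this outcome was fixed by leaving it out. Such separation was seen for 9.36% of all genes, and for 15.3% of those with a mean of at least 1 CPM.

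GF-ND retina 11 had the highest level of lens genes and the lowest of rod genes. The mean log2 CPM of 12 rod genes was between 11.11 and 11.46 in GF-HFD retinas, against 10.48 in GF-ND retina 11 and between 11.03 and 11.12 in the other GF-ND retinas. With the lens level as a covariate in the edgeR model of all 8 retinas, the median of the 9 genes was 0.27, 5 of 9 had an unadjusted p under 0.05 (7.32% of all genes higher), and adjusted p ranged from 0.224 to 0.567, with 0 of 9 called (0.00372% of all genes called higher). Leaving out GF-HFD retina 19 as well as GF-ND retina 11 gave a median of 0.37 and a smallest adjusted p of 0.100. Whether the lens and rod levels have a part in the RGC levels beyond these fits was not tested.

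**Figure D4:**
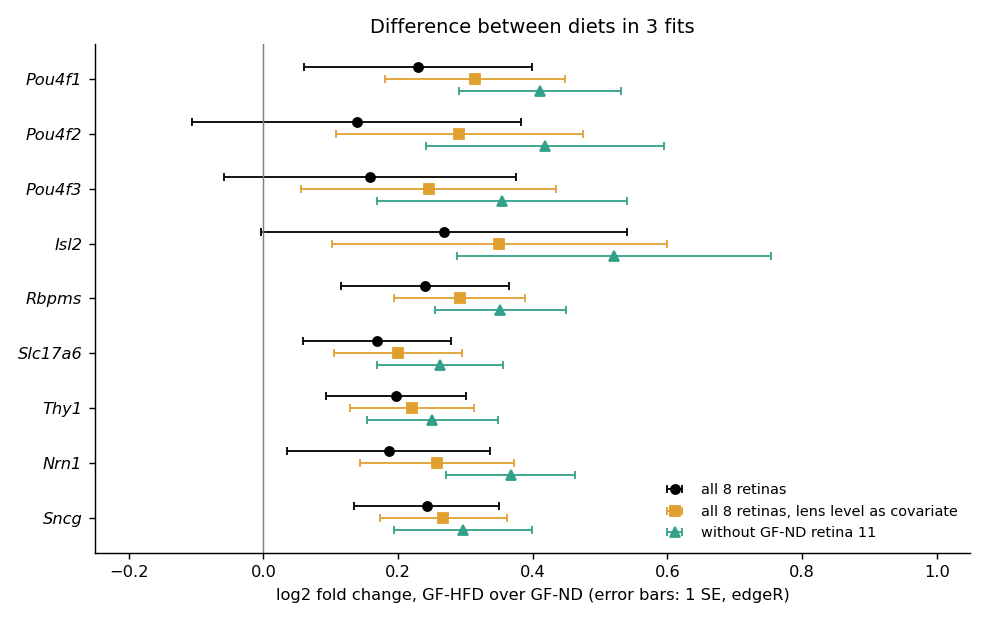
Log2 fold change, positive where GF-HFD is higher (points), with 1 SE of the edgeR model (bars) for each gene in 3 fits: all 8 retinas, all 8 with the lens level as covariate, and without GF-ND retina 11. All points lie above 0, and the median is 0.20, 0.27 and 0.35 in the 3 fits.

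Other genes of RGCs, listed apart from the 9, showed a like order of retinas. The part of other retinal cells in their levels was not tested. In a panel of 25 RGC genes (neurofilaments, axon proteins, transcription factors and receptor subunits), 21 were higher and 4 lower with the high-fat diet (median log2 fold change 0.15) and 0 were called. At an unadjusted p under 0.05, 1 was higher, against 2.85% of all genes. That gene, Tubb3, a neuronal tubulin, averaged 88.98 ± 10.1 CPM in the GF-HFD group and 72.4 ± 8.52 CPM in the GF-ND group (mean ± SD of 4), which is 0.30 on the log2 scale (SE 0.11). The neurofilament genes Nefl, Nefm and Nefh, which build the axon skeleton, had log2 fold changes of 0.18, 0.25 and 0.25, and Stmn2, a microtubule regulator, of 0.20. Uchl1, a neuronal ubiquitin hydrolase, differed by 0.01 with all retinas and by 0.38 without GF-ND retina 11, which held 205 CPM against 80.8 to 104 CPM in the other GF-ND retinas. GF-ND retina 11 was the highest of the 8 for 13 of the 25 and GF-ND retina 12 the lowest for 18. Without retina 11 all 25 were higher, against 51.0% of all genes tested, with a median of 0.28. An unadjusted p under 0.05 was reached by 16 of the 25, against 12.1% of all genes higher in that fit.

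Over these 25 and 23 subtype markers, the genes closest to the mean pattern of the 9 were Chrnb3, an acetylcholine receptor subunit, Nefm, and Ina, a neuronal intermediate filament. Likeness was the root mean square difference of centred log2 CPM over 8 retinas, which was 0.06 for Chrnb3, 0.06 for Nefm and 0.08 for Ina, among the 46 genes with a mean of at least 1 CPM. Chrnb3 averaged 107 ± 7.65 CPM in the GF-HFD group and 94.6 ± 15.0 CPM in the GF-ND group (mean ± SD of 4), and 116 CPM in GF-ND retina 11.

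Of 23 markers of RGC subtypes, 20 were higher and 3 lower with the high-fat diet, with a median of 0.10 on the log2 scale, and 0 were called. At an unadjusted p under 0.05, 2 were higher and 1 was lower, against 2.85% and 4.53% of all genes. Kcng4, a potassium channel subunit of alpha RGCs, ranged between 28.9 and 31.3 CPM in the GF-HFD group and between 22.1 and 25.02 CPM in the GF-ND group. It did not overlap between the groups, GF-ND retina 11 included (log2 fold change 0.32, SE 0.08, edgeR adjusted p = 0.649, two-sided exact permutation p = 0.0286). Col25a1, a membrane collagen, was on the other side and did not overlap either, with 13.003 to 14.6 CPM in the GF-HFD group and 14.8 to 18.6 CPM in the GF-ND group (log2 fold change -0.31, SE 0.11, edgeR adjusted p = 0.649, two-sided exact permutation p = 0.0286). Separation of this kind was thus seen for 1 of 23 in each direction. Over all 26900 genes tested, 616 (2.29%) were separated upward and 682 downward. Any full separation of 4 against 4 retinas gives this permutation p. Spp1, osteopontin, also of alpha RGCs, ranged between 16.2 and 34.8 CPM in the GF-HFD group and between 10.7 and 18.9 CPM in the GF-ND group (log2 fold change 0.65, SE 0.24). Its highest value was in the lens-rich GF-HFD retina 19. Opn4, the melanopsin of light-sensing RGCs, differed by 0.34 (SE 0.23), and the more abundant Calb2, Jam2 and Cartpt by 0.17, 0.10 and -0.01. Without GF-ND retina 11 the median of the 23 was 0.33, and 8 were higher and 1 lower at an unadjusted p under 0.05. Of all 26338 genes tested in that fit, 3178 (12.1%) were higher and 2890 lower at this threshold. In that fit edgeR called 1 of the 23, Foxp1, a forkhead factor (log2 fold change 0.45, adjusted p = 0.0368), and 0.232% of all genes as higher. With all 8 retinas Foxp1 had a log2 fold change of 0.14 (edgeR adjusted p = 0.873).

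Genes that RGCs raise after axon injury had fold changes in both directions. Of 15 such genes 7 were higher and 8 lower under the high-fat diet, with a median of -0.03, and 0 were called. Jun, a factor of the injury response, averaged 38.1 ± 6.40 CPM in the GF-HFD group and 31.5 ± 3.02 CPM in the GF-ND group (mean ± SD of 4), and Ddit3 (CHOP), of the stress response, 36.1 ± 1.49 CPM in GF-HFD mice, against 34.6 ± 6.07 CPM in GF-ND mice. Atf3, one of the earliest injury genes, ranged between 6.81 and 9.52 CPM in the GF-HFD group and between 4.34 and 10.2 CPM in the GF-ND group. At an unadjusted p under 0.05, Chac1 was higher (log2 fold change 0.50, SE 0.20) and Ecel1 lower (-0.83, SE 0.36, with 12 to 52 counts per library). The adjusted p was 0.649 for both. Without GF-ND retina 11 the median of the 15 was 0.01, and 5 were higher and 2 lower at an unadjusted p under 0.05. Of all 26338 genes tested in that fit, 3178 (12.1%) were higher and 2890 lower.

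Genes of amacrine cells, of which only a part lie in the ganglion cell layer, showed a like order of retinas. Of their 12 genes 10 were higher and 2 lower under the high-fat diet, with a median of 0.09, and 0.19 without GF-ND retina 11. That retina was the highest of the 8 for 9 of the 12, and GF-ND retina 12 the lowest for 9. Gad1, the GABA-synthesising enzyme, averaged 322 ± 11.4 CPM in the GF-HFD group and 307 ± 33.4 CPM in the GF-ND group (mean ± SD of 4). The rod genes had another order, with 12 of 12 higher in GF-HFD retinas (median 0.31) and the lowest levels in GF-ND retina 11. Astrocyte genes (8) had a median of 0.16, genes of oligodendrocytes and myelin (8 tested of 9) -0.11, genes of vascular smooth muscle and pericytes (10) 0.13, fibroblast genes (11) 1.12, T cell genes (4 tested of 8) 0.21, lens genes (20) -2.89, and genes of hair cells and sensory ganglia (9 tested of 10) 0.00. None of these genes was called by edgeR. Without GF-ND retina 11 the median changed sign for the lens genes (2.27), myelin (0.06), T cells (-0.05) and hair cells and sensory ganglia (-0.05). It was then 0.33 for astrocytes, 0.32 for vascular smooth muscle and pericytes, 1.64 for fibroblasts and 0.19 for rods.

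**Figure D5:**
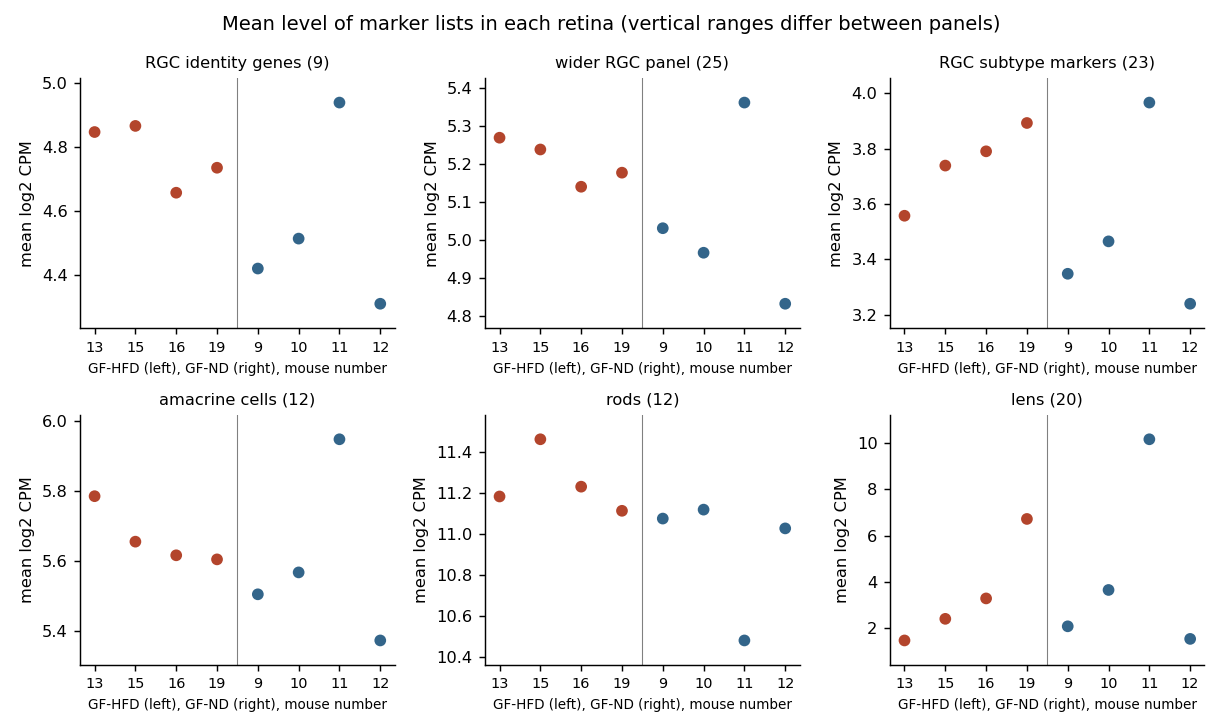
Mean log2 CPM of the 9 RGC identity genes and of 5 marker lists in each retina, GF-HFD left and GF-ND right of the line; the vertical range differs between panels. GF-ND retina 11 is the highest for the RGC, subtype, amacrine and lens lists and the lowest for rods, and GF-ND retina 12 is the lowest for the RGC, subtype and amacrine lists.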

How the data were processed

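TruSeq libraries were read as 100-bp pairs. The authors used STAR 2.4.2 and the GRCm38 genome for alignment and featureCounts (Subread 1.4.6-p1) for the count of each gene. The deposited tables hold these raw counts, 1 table per retina. The strand and pair settings of the counting are not given in the sources used here; among counts of 1 to 12, even values outnumbered odd ones by 1.91 to 2.36 times. Genes with a sum of 10 or more counts were scaled by TMM and compared between diets with the quasi-likelihood test of edgeR 4.0.16 in R 4.3.3, with Benjamini-Hochberg adjustment over all genes. Log2 CPM used a prior count of 2. Single genes were also compared by a two-sided exact permutation test of log2 CPM over 70 arrangements. The members and the 12 gene lists were chosen with earlier results of these data known. Besides the 9 members, genes named are the 3 highest in mean CPM or smallest in p of a list and the 3 closest to the members' pattern; Opn4, Atf3, Foxp1, Atoh1 and the T cell genes at 0 or 4 counts were chosen after their values were seen, and for the lists of other cell types few are named. Alternatives were RLE, total and upper-quartile scaling, 3 other filters on low counts, DESeq2 1.42.0, limma-voom (limma 3.58.1), the lens level as covariate and retinas left out. The permutation test and the separation of groups without GF-ND retina 11, and the counts of members at an unadjusted p in every fit, were added after seeing the data. The test was checked on simulated data with larger changes than those of the 9 members, in well counted genes and without a lens-rich retina. That check does not bear on differences of the size reported here. Exon lengths and positions are of GENCODE vM21.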

Additional observations from a re-analysis of the deposited data

Results flagged for a closer look

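The mean log2 CPM of the 12 rod genes was 10.5 in GF-ND retina 11, against 11.03 to 11.1 in the other GF-ND retinas and 11.1 to 11.5 in the GF-HFD retinas, a gap that is large for a group of 4 (beyond Dixon's critical value). This was 1 of 42 groups examined in this way, and chance alone marks about 1 in 20. In the same retina the 9 RGC identity genes and the lens genes were at the top of their group. The cause was not tested.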

How the results depend on the processing

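Under 18 alternatives, 159 of 160 fold changes of the 9 genes kept their sign, 0 of the 9 genes were called, and the smallest adjusted p was 0.0720. The exception was Pou4f2, with -0.03 (-0.0289) without GF-ND replicate 12, and its range with 1 retina left out was -0.03 to 0.42. The median of the 9 ranged from 0.12 to 0.37. The number of members with an unadjusted p under 0.05 was 0 or 1 except with the lens covariate (5), without GF-ND retina 11 (8) and without both lens-rich retinas (8). Over all genes, edgeR called 0 higher and 0 lower; DESeq2 called 9 higher and 44 lower, the lens covariate gave 1 and 3, leaving out both lens-rich retinas 6 and 49, and leaving out 1 retina 0 to 61 higher and 0 to 360 lower. The cause was not tested. Pou4f3 and Isl2 were not tested with a minimum of 10 CPM in 4 libraries, which left 7 of 9. No paired analysis was possible because the diets were given to different mice, with 1 retina each. Depth limits Isl2 and Pou4f3 most, at 84 to 284 counts per library.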
